A study of Mus musculus with 7 samples.

Results

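The Slc15 genes encode the proton-coupled oligopeptide transporter family, and their mRNA was examined in Lin-Sca1+cKit+ (LSK) cells, the bone marrow (BM) fraction that holds hematopoietic stem cells and multipotent progenitors. The genes were taken by symbol: Slc15a1, Slc15a2, Slc15a3, Slc15a4 and the pseudogene Gm8425. The last is annotated within Slc15a2 on the opposite strand and was included as a check of shared reads. These 5 genes are among the 48440 in the deposited table. The family was chosen by its fold change, because Slc15a2 was already known to differ between the groups in these libraries, and the difference of the members is therefore given as a description, without a p-value. LSK cells were sorted from C57BL/6 recipients that had received BM of either wild-type or PROSER1 KO donors after lethal irradiation (9.5 Gy, split over 2 doses), and were collected at day 77. The knockout is a constitutive, endonuclease-mediated allele carried by all donor cells. The design gives 4 wild-type and 3 PROSER1 KO libraries, named as biological replicates without saying which animals they came from. Therefore p-values measure the spread between these libraries only. The ages of the mice were not given, and no sort against remaining host cells was described.

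Proteins of this family carry dipeptides, tripeptides and, for some members, free histidine across membranes, driven by the proton gradient. SLC15A1 (PEPT1) is best known for peptide uptake in the small intestine and SLC15A2 (PEPT2) for high-affinity peptide reabsorption in the kidney. Both sit at the cell surface. SLC15A3 (PHT2) and SLC15A4 (PHT1) reside on endosomes and lysosomes of immune cells, where SLC15A4 takes part in signalling from nucleic acid-sensing Toll-like receptors (TLRs). The family can also move bacterial muropeptides towards the NOD receptors in the cytosol.

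Libraries held 33143619 to 45140743 read pairs on genes. A normalised count is the number of read pairs divided by the size factor of its library, and the 3 read pairs that a count of 0 still allows equal 2.54 to 3.48 normalised counts (counting error only). Proser1, the targeted gene, had 2019 to 2153 normalised counts in wild-type and 2338 to 2464 in PROSER1 KO, so that its mRNA was not lower in the knockout libraries and the direction of each difference rests on the labels. The LSK markers were present in both groups, with a mean of 29183 normalised counts of Kit and 5243 of Ly6a (Sca1) in wild-type, against 27815 and 4705 in the PROSER1 KO libraries. Of 12 LSK markers, 0 were differentially expressed with limma, edgeR or DESeq2, and 1 had an unadjusted p-value under 0.05 with limma. Genes were called differentially expressed when they changed more than 1.5-fold with a p-value below 0.05 after Benjamini-Hochberg adjustment over 16251 genes, those averaging 10 normalised counts or more. DESeq2 used its own filter, and its calls rest on the 18903 genes to which it gave an adjusted p-value. Over all tested genes, 0.258% were called with limma, 0.246% with edgeR and 0.873% with DESeq2, and 9.73% had an unadjusted p-value under 0.05 with limma. Standard errors (SE) are those of the limma fit. Unless another tool or setting is named, log2 fold changes are differences of log2(normalised count + 1), PROSER1 KO minus wild-type. The added 1 understates the change of genes with low counts.

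Of the surface transporters, Slc15a2 (ENSMUSG00000022899) lies on the reverse strand of chromosome 16 from 36750177 to 36784962 (GRCm38). In wild-type replicates 1 to 4 it had 45.2, 36.1, 55.2 and 86.9 normalised counts. In PROSER1 KO replicates 1 to 3 it had 808, 798 and 986. The groups lay far apart, and even the lowest PROSER1 KO library stood 3.18 above the highest wild-type library on the log2 scale. On average this was 55.8 ± 22.2 (SD, n = 4) against 864 ± 106 (SD, n = 3), which makes a 15.5-fold ratio of means, or a log2 fold change of 4.00 ± 0.27 (SE). In recovered read pairs, Slc15a2 had 40 to 75 per library in wild-type and 775 to 1027 in PROSER1 KO. Thus the transcript was low but detected in every wild-type library. The coefficient of variation was 39.7% in wild-type and 12.2% in PROSER1 KO. Wild-type replicate 4 held the highest wild-type level, and without it (left out after the values were seen) the wild-type coefficient was 21.02%.

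The bases just before the annotated start of Slc15a2 are shown because this gene carries the difference, next to those of Slc15a4, the member with the highest level. Both runs are the 250 bases upstream of the RefSeq start (GRCm38.p6), written from 5′ to 3′ on the strand of the gene, with CpG sites in capitals. That of Slc15a2 is chr16:36784963-36785212 and that of Slc15a4 is chr5:127617393-127617642, both on the reverse strand. The RefSeq and GENCODE M21 starts of Slc15a2 are the same base. For Slc15a4 the GENCODE gene, taken to its outermost transcript start, begins 15.5 kb further upstream, so that the run shown lies within the annotated gene body, and the nearest of its 11 GENCODE transcript starts is 11 bp from the RefSeq start.
Slc15a2: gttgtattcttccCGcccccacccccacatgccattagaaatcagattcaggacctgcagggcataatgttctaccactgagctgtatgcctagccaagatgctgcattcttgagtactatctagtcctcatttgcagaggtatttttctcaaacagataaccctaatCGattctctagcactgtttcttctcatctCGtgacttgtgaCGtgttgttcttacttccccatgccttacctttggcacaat
Slc15a4: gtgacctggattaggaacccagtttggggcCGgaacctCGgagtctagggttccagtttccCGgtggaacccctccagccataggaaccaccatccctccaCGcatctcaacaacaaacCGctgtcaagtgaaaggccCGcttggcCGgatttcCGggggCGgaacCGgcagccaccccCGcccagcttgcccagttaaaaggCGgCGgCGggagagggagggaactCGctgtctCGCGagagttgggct
The Slc15a2 run held 4 CpG sites and the Slc15a4 run 17. Over windows of 300 bases, from 250 before to 50 after the start, Slc15a2 had 5 CpG sites, Slc15a1 had 12 and Slc15a4 had 23, against a median of 7 over 32851 RefSeq promoters. Of these promoters, 56.4% had more CpG sites than Slc15a2 and 78.5% had fewer than Slc15a4. The motif GGGCGG (either strand) occurred in the windows of Slc15a2 and Slc15a4 and not in that of Slc15a1. It occurred in 35.7% of all promoters. CpG methylation was not analysed here, so that these counts describe sequence only. The Slc15a3 promoter was not used here.

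The other surface transporter, Slc15a1 (ENSMUSG00000025557, chromosome 14, 121459621 to 121505252), was at the limit of detection. Its normalised counts were 6.73, 1.80, 0 and 0 in the wild-type libraries, against 7.30, 1.69 and 2.88 in PROSER1 KO, and the groups overlapped. These values correspond to between 0 and 7 read pairs per library, and no fold change is given. Slc15a5 (ENSMUSG00000044378), the remaining gene of the family in the table, had 0 read pairs in all 7 libraries.

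Among the endolysosomal transporters, Slc15a4 (ENSMUSG00000029416, chromosome 5, 127595664 to 127632897) had 1042, 1087, 980.5 and 1058 normalised counts in the wild-type libraries, against 1229.9, 1056 and 1164 in PROSER1 KO. PROSER1 KO replicate 2 lay within the wild-type range, and the other 2 PROSER1 KO libraries lay above it. Its mean was 1042 ± 45.1 (SD, n = 4) in wild-type and 1149.9 ± 87.7 (SD, n = 3) in PROSER1 KO, a log2 fold change of 0.14 ± 0.072 (SE). Slc15a4 was also the member with the least relative spread, with coefficients of variation of 4.33% and 7.63%.

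Slc15a3 (ENSMUSG00000024737, chromosome 19, 10839727 to 10859362) had 128, 80.2, 79.3 and 128 normalised counts in the wild-type libraries, against 149, 116 and 119 in PROSER1 KO. Its wild-type libraries fell into a higher and a lower pair, and 2 of the 3 PROSER1 KO libraries lay between these pairs. Its mean was 104 ± 27.7 (SD, n = 4) in wild-type and 128 ± 18.4 (SD, n = 3) in PROSER1 KO, a log2 fold change of 0.33 ± 0.23 (SE). Of the 5 members, 3 passed the filter on low counts, and the 1 of these 3 called in the limma fit is Slc15a2, for which the family was chosen, where 0.258% of all tested genes were called (0.123% higher and 0.135% lower in PROSER1 KO). Of the 3 tested members, Slc15a2 was also the 1 whose groups did not overlap, against 5.17% of all tested genes higher and 4.83% lower without overlap. The rule that chose the family rests on this same contrast, and nothing is read from this count.

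**Figure D1:**
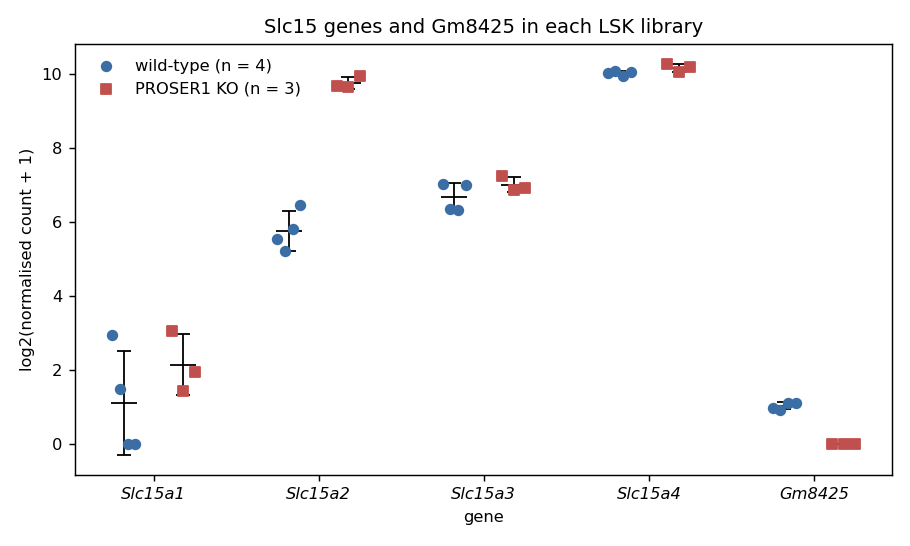
Normalised counts of the 4 Slc15 genes and Gm8425 as log2(normalised count + 1), 1 point per library (circles, wild-type, n = 4; squares, PROSER1 KO, n = 3), with the mean and SD of each group as bars. The points of Slc15a2 separate by group, from 36.1 to 86.9 normalised counts in wild-type against 798 to 986 in PROSER1 KO, while those of Slc15a3 and Slc15a4 overlap.

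The pseudogene Gm8425 (ENSMUSG00000091786, chromosome 16, 36778834 to 36779602, forward strand) lies within Slc15a2 but shares 0 bp with its exons in GENCODE M21. It had exactly 1 read pair in each wild-type library and 0 in each PROSER1 KO library. In the libraries where Slc15a2 was high, Gm8425 showed no read pair, and all its values were below the limit of 3 read pairs. With no exon shared in this annotation, reads from Slc15a2 exons could not be counted for Gm8425. Its values therefore do not check those reads. Library preparation kept the strand, but the strand setting of the counting was not stated. Slc15a3 shares 1541 bp of exon with Tmem132a on the other strand, and Slc15a4 shares 427 bp with Gm43474, so that reads in these stretches are uncertain. Tmem132a had 110 to 199 normalised counts in wild-type and 119 to 251 in PROSER1 KO (log2 fold change 0.081, limma adjusted p = 0.954). Gm43474 had at most 5.80 in any library. Glt1d1, which overlaps the gene body of Slc15a4 with 0 bp of shared exon, differed by 0.56 ± 0.54 on the log2 scale (SE, limma adjusted p = 0.785).

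To compare levels between the members, normalised counts were divided by the length of the merged exons in kb. In wild-type, the order was Slc15a4 (196 ± 8.49 normalised counts per kb, SD, n = 4), Slc15a3 (18.9 ± 5.04), Slc15a2 (7.59 ± 3.01) and Slc15a1 (0.437 ± 0.651). The ranges of neighbours in this order did not overlap, as Slc15a3 lay between 14.4 and 23.3 and Slc15a2 between 4.90 and 11.8. In PROSER1 KO, Slc15a4 (216 ± 16.5, SD, n = 3) was followed by Slc15a2 (117 ± 14.4), Slc15a3 (23.3 ± 3.34) and Slc15a1 (0.810 ± 0.605). Slc15a2 thus changed places with Slc15a3. The level of Slc15a2 per kb exceeded that of 7.53% of 16195 tested genes in wild-type and that of 38.7% in PROSER1 KO, whereas Slc15a4 exceeded 48.7% and 50.9%.

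Within the family, Slc15a4 contributed 85.0% to 91.1% of the summed level per kb in the wild-type libraries and 58.4% to 62.6% in the PROSER1 KO libraries. Slc15a2 contributed 2.18% to 5.04% and 29.7% to 35.7%. The level of Slc15a4 was 16.9 to 41.8 times that of Slc15a2 in wild-type and 1.64 to 2.11 times in PROSER1 KO. By comparison, the ratio of Slc15a4 to Slc15a3 ranged from 8.43 to 14.01 and from 8.52 to 10.1, so that the proportions of the 2 endolysosomal transporters overlapped between the groups. The summed level of the 4 genes was 223 ± 11.8 per kb in wild-type and 358 ± 25.5 in PROSER1 KO. In these bulk libraries, more cells with Slc15a2 mRNA and more Slc15a2 mRNA per cell cannot be told apart.

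**Figure D2:**
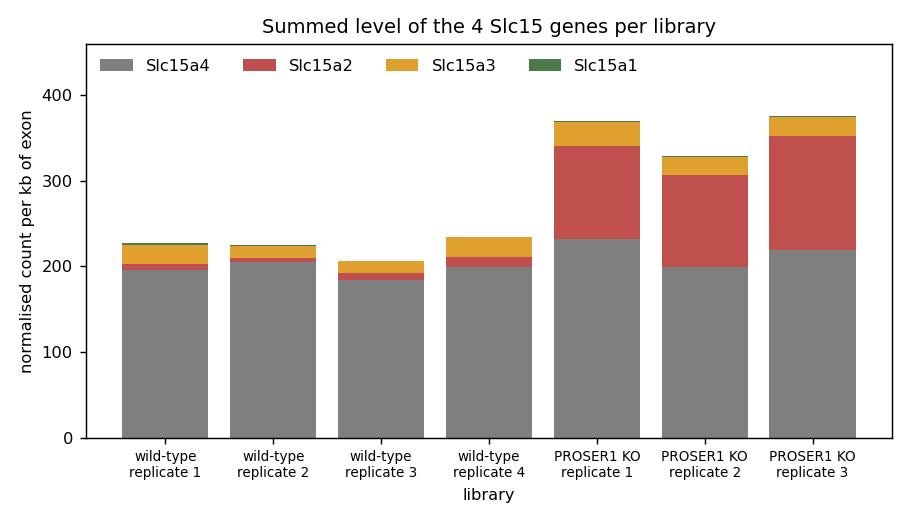
Summed level of the 4 Slc15 genes in each library in normalised counts per kb of merged exon, with each gene as a stacked segment. Slc15a4 (grey) is the largest segment in all 7 libraries, and the Slc15a2 segment (red) grows from 4.90 to 11.8 per kb in wild-type to 108 to 134 in PROSER1 KO.

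The difference of Slc15a2 was next placed among the solute carriers as a whole. Of 383 Slc genes in the table, 236 were tested, and their median log2 fold change was -0.0047, against 0.0015 over all tested genes. Slc15a2 had the highest log2 fold change of the 236 and ranked 9 among all 16251 genes. The family was chosen on this same contrast, and nothing is read from its rank. Slc15a3 and Slc15a4 ranked 1360 and 3067. Outside the Slc15 family, 1 of 233 tested Slc genes (0.429%) was differentially expressed with limma, against 0.258% of all tested genes. It was Slc16a11, of the monocarboxylate transporter family, which fell from 840.5 to 308 normalised counts. Its log2 fold change was -1.46 ± 0.15 (SE) with a limma adjusted p of 0.00491, which was 0.0598 without the mean-variance trend. Slc17a8, a vesicular glutamate transporter, came next after Slc15a2, with 81.7 normalised counts in wild-type, 206 in PROSER1 KO and a log2 fold change of 1.36 ± 0.24 (SE, limma adjusted p = 0.0693). It passed with DESeq2 (adjusted p = 2.46e-05), with robust variance estimates (0.0142), with quantile normalization (0.0367) and without wild-type replicate 4 (0.0202). Under the other settings tried, edgeR among them, Slc17a8 was not called. DESeq2 also called Slc4a8, a bicarbonate transporter (DESeq2 log2 fold change -1.05, adjusted p = 0.0107), which limma did not (log2 fold change -1.03, adjusted p = 0.222). With DESeq2, 3 Slc genes outside the Slc15 family were called, where 0.873% of all genes were called.

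**Figure D3:**
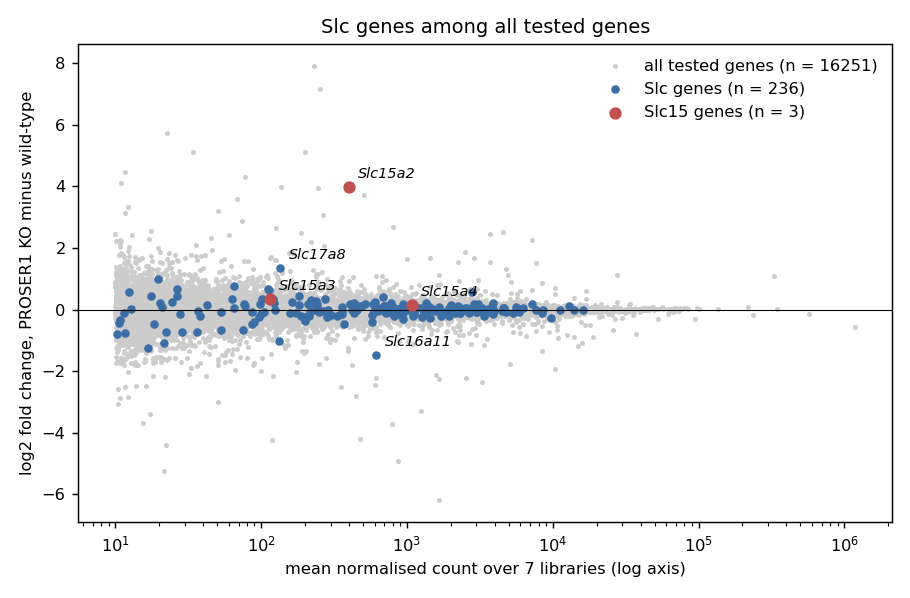
Log2 fold change (PROSER1 KO minus wild-type) of each tested gene against its mean normalised count over 7 libraries on a log axis, with all 16251 tested genes in grey, the 236 Slc genes in blue and the 3 tested Slc15 genes in red. Slc15a2 lies at 4.00, apart from the other Slc genes, which span -1.46 (Slc16a11) to 1.36 (Slc17a8). The family was chosen with this difference of Slc15a2 known.

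Genes around Slc15a2 on chromosome 16 were then compared in the same fit. Of 60 genes within 1 Mb of either end, 22 were tested, and 0 were differentially expressed with limma, edgeR or DESeq2. At the shares over all tested genes (0.258%, 0.246% and 0.873%), a count of 0 among 22 is near the background. Limma gave 4 of them an unadjusted p-value under 0.05, against 9.73% of all tested genes, and 0.333 as the lowest adjusted p-value. Their log2 fold changes ranged from -0.95 (Fbxo40) to 0.34 (Fstl1), with a median of -0.032. The nearest tested gene upstream, Eaf2, which encodes a partner of the ELL elongation factors, lies 7.92 kb away and had 747 ± 279 normalised counts in wild-type (SD, n = 4) and 518 ± 99.0 in PROSER1 KO (SD, n = 3), with a log2 fold change of -0.46 ± 0.28 (SE, limma adjusted p = 0.638). On the other side, Ildr1, at 23.4 kb, had 52.3 ± 22.5 and 39.9 ± 6.98 (log2 fold change -0.31 ± 0.34 SE, limma adjusted p = 0.824). Values of both direct neighbours overlapped between the groups, and wild-type replicate 4 was the highest of the 7 libraries for each. Without it (left out after the values were seen), the log2 fold change was -0.25 for Eaf2 and -0.061 for Ildr1. Cd86, a costimulatory receptor of antigen-presenting cells at 84.1 kb, differed by 0.34 on the log2 scale (limma adjusted p = 0.562; named after its values were seen). Around the other members, 0 of 15 tested genes near Slc15a1, 0 of 42 near Slc15a3 and 0 of 1 near Slc15a4 were differentially expressed with any of these 3 tools, again near the shares over all tested genes, with 3, 5 and 0 at an unadjusted p-value under 0.05 with limma (9.73% of all tested genes). The tested genes next to Slc15a1 were Dock9 (log2 fold change -0.099) and Stk24 (-0.014), and those next to Slc15a3 were Cd6 (-0.29) and Tmem109 (0.031).

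**Figure D4:**
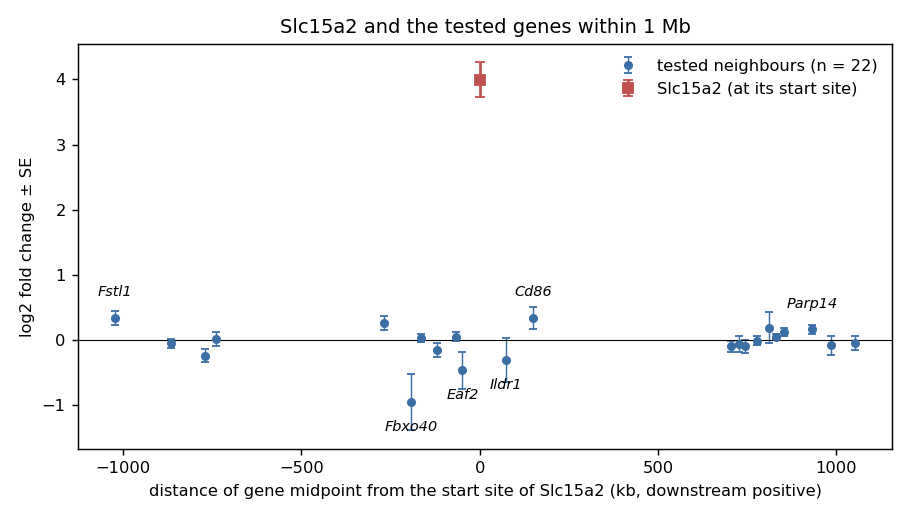
Log2 fold change with its standard error for Slc15a2 (square) and the 22 tested genes within 1 Mb (circles), against the distance of the gene midpoint from the start site of Slc15a2 in kb. Slc15a2 lies at 4.00, and its neighbours lie between -0.95 and 0.34.

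Over the 7 libraries, the genes with the profile nearest to that of Slc15a2 were Rps26-ps1, Gm4779, Tex11, Gm128 and Gm7233, as a description. The measure includes the difference between the groups for which Slc15a2 was chosen, and so favours other genes with a large rise. The log2 fold changes of these 5 genes ran from 2.66 (Gm128) to 5.73 (Gm7233). Likeness was the root mean square difference of the log2 values, each gene centred on its own mean, and was 0.76 for Rps26-ps1, 0.86 for Gm4779, 0.91 for Tex11, 0.93 for Gm128 and 0.95 for Gm7233. Rps26-ps1, a pseudogene of a ribosomal protein gene on chromosome 8 whose reads are uncertain because of its parent gene, had 214 to 265 normalised counts in wild-type and 1420.0 to 1701 in PROSER1 KO. Gm128 on chromosome 3 had 25.5 to 50.5 and 203 to 288. Gm4779 on the X chromosome had 2.88 to 8.11 and 36.4 to 364, a wide spread within PROSER1 KO. Gm7233 on chromosome 14 had no read pair in any wild-type library and 41.7 to 65.2 normalised counts in PROSER1 KO. Tex11, a meiosis gene on the X chromosome, was not seen in any wild-type library and had 6.72 to 42.3 normalised counts in PROSER1 KO. None of the 5 lies on chromosome 16.

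The partners of these transporters were examined in 5 lists: enzymes that hydrolyse small peptides, histidine metabolism and transport, TLR and NOD signalling, lysosomal amino acid sensing, and the proton gradient with its scaffolds. Of 96 tested genes in the 5 lists together, 0 were differentially expressed with limma, edgeR or DESeq2, near the 0.258%, 0.246% and 0.873% of all tested genes. There were 7 with an unadjusted p-value under 0.05 in limma, against 9.73% of all tested genes.

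Peptide hydrolysis had 22 tested genes of 27, with 11 above 0 and a median log2 fold change of 0.0030. Its extremes were Enpep, an aminopeptidase, at 1.36 ± 0.55 (SE, limma adjusted p = 0.460) with 7.19 and 17.7 normalised counts, and Ggt1, a gamma-glutamyltransferase, at -1.59 ± 0.77 (SE, limma adjusted p = 0.542) with 39.2 and 19.7. In the histidine list, 10 of 14 genes were tested, and 4 lay above 0 (median -0.031). Hdc, which makes histamine from histidine, was the lowest at -0.33 (limma adjusted p = 0.680), and Slc38a5, a transporter of glutamine and histidine, was the highest at 0.66 (limma adjusted p = 0.671). Slc7a8, a light chain of neutral amino acid exchange, had the smallest adjusted p-value of the 5 lists. Its normalised counts were 2131, 2215, 2646 and 2301 in the wild-type libraries, against 3074, 3624 and 3572 in PROSER1 KO, so that the groups did not overlap, as in 5.17% of all tested genes in this direction. Its log2 fold change of 0.56 ± 0.086 (SE, limma adjusted p = 0.0329) is a 1.47-fold change, just under the minimum of 1.5. Without wild-type replicate 3 (log2 fold change 0.62) or PROSER1 KO replicate 1 (0.64) it was above this minimum, with limma adjusted p-values of 0.0153 and 0.0309.

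The lists tied to the endolysosomal members stayed close to 0. For TLR and NOD signalling, 18 of 19 genes were tested, and their log2 fold changes ran from -0.17 (Tlr3, a sensor of double-stranded RNA) to 0.17 (Tlr7, a sensor of single-stranded RNA), with a median of 0.030. For lysosomal amino acid sensing, which includes the Ragulator, Rag and mTORC1 genes, all 22 were tested and ran from -0.11 (Tfe3) to 0.19 (Slc29a3), with a median of 0.0047. For the proton gradient, 24 of 26 genes were tested, with a median of -0.0083. Slc9a8, a sodium-proton exchanger, was lowest at -0.20 ± 0.044 (SE, limma adjusted p = 0.146), and Slc9a2, of the same family, was highest at 0.34 (limma adjusted p = 0.651). The scaffold gene Pdzk1 and the exchanger Slc9a3 were below the filter on low counts.

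Marker lists of cell types that could accompany LSK cells were summed per library beside these values. For 12 macrophage markers the sum was 1951 to 2540 normalised counts in wild-type and 2597 to 2797 in PROSER1 KO. These sums did not overlap between the groups. Singly, 1 of the 12 markers separated the groups, against 5.17% of all tested genes higher and 4.83% lower without overlap. A log2 fold change above 0 was found for 10 of the 12 genes (median 0.28), against 8219 of all 16251 tested genes. The highest was that of Mertk, a receptor for apoptotic cells with 18.7 and 38.7 normalised counts (1.06 ± 0.47 SE, limma adjusted p = 0.515), and the lowest that of Adgre1, which encodes F4/80 with 31.7 and 21.3 (-0.52, limma adjusted p = 0.700). None of the 12 markers was at 0 in all libraries. The epithelial list of 8 markers reflects tissues where PEPT1 and PEPT2 are best known. Its sum ran from 2182 to 2548 in wild-type and from 1816 to 2068 in PROSER1 KO, also without overlap. Of its 6 tested genes, 0 lay above 0 (median -0.56) and 0 separated the groups singly, with extremes at Krt18 (-0.078) and Cldn4 (-1.49). Krt18 alone had a mean of 1623 normalised counts in wild-type and 1538 in PROSER1 KO, and Krt19 was at 0 in all libraries. The part of either cell type in the level of Slc15a2 was not tested.

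The sums of the other lists overlapped between the groups. They were 13525 to 18398 in wild-type and 14579.9 to 17800 in PROSER1 KO for plasmacytoid dendritic cells (median log2 fold change 0.058), with Siglech highest (0.78), Ly6d lowest (-0.28) and Klk1 at 0 in all libraries. For B cells they were 4387 to 8726 and 4553 to 7268 (median 0.013), with Pax5 highest (0.99) and Ms4a1 lowest (-0.61). The plasma cell list, which holds Jchain and also Eaf2, summed to 172858 to 433606 and 201726 to 301745 (median -0.37). Of its 10 tested genes, 0 lay above 0, and its extremes were Jchain (-0.17) and Prdm1 (-0.49). Wild-type replicate 4, with the highest wild-type level of Slc15a2, also held the highest plasma cell, B cell, plasmacytoid dendritic cell, macrophage and epithelial sums of that group. Neutrophil genes summed to 25784 to 29076 and 22787 to 28387 (median -0.019), between Ctsg (-0.44) and Lcn2 (0.32). The LSK list summed to 126320 to 141180 and 126794 to 131028 (median -0.012), between Mecom (-0.25) and Slamf1 (0.28). Tested genes above 0 were 6 of 9 for plasmacytoid dendritic cells, 5 of 10 for B cells, 4 of 10 for neutrophils and 4 of 12 for LSK. Of the 57 tested genes in the 6 lists other than LSK, 0 were differentially expressed with limma, edgeR or DESeq2, near the shares over all tested genes (0.258%, 0.246% and 0.873%), and 5 had an unadjusted p-value under 0.05 with limma, against 9.73% of all tested genes.

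**Figure D5:**
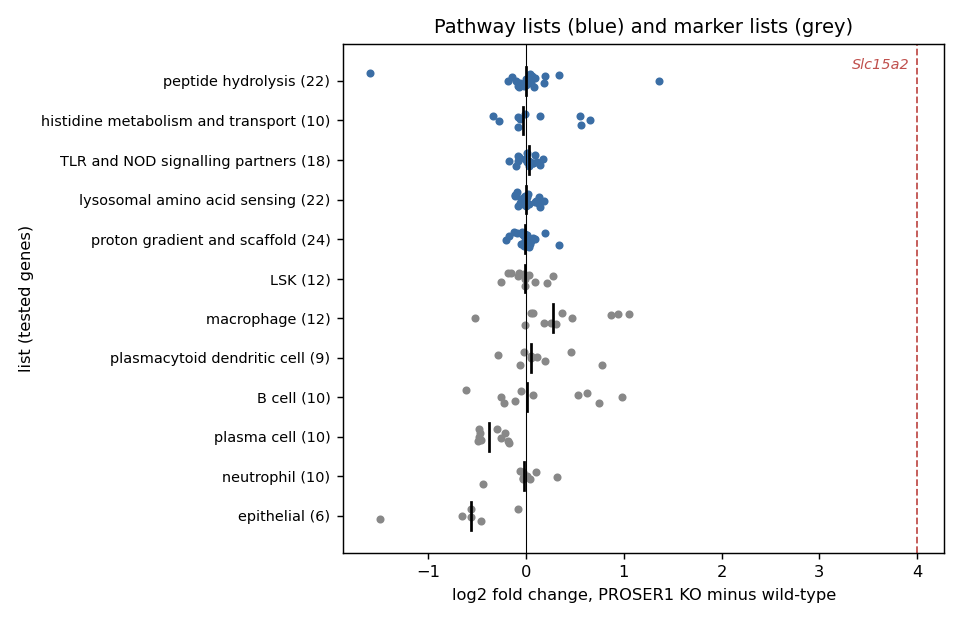
Log2 fold change (PROSER1 KO minus wild-type) of every tested gene in the 5 pathway lists (blue) and the 7 marker lists (grey), with the median of each list as a vertical bar and the value of Slc15a2 as a dashed line. All listed genes lie between -1.59 (Ggt1) and 1.36 (Enpep), below the 4.00 of Slc15a2.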

How the data were processed

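LSK cells of 4 wild-type and 3 PROSER1 KO libraries were compared. Before deposition, the authors trimmed reads with Trimmomatic, aligned them to mm10 (GRCm38) using STAR, counted read pairs per gene by featureCounts and normalised with DESeq2. The deposited values are therefore a signal per gene, in normalised counts, and not raw counts. Tool versions and the strand setting of counting are not given in the sources used here. The methods name GENCODE M25 and the file header M10. Positions and exon lengths come from M21 (GRCm38), which held 48058 of 48440 gene IDs, and promoter sequences come from RefSeq (GRCm38.p6). All values came out as whole read pairs (100% within 0.01 read pairs) when divided by the smallest value of the library. There were 685 genes without a symbol, which stayed in the fit, and 0 unused columns.

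Values entered limma 3.58.1 (R 4.3.3, eBayes with trend) as log2(normalised count + 1), for the 16251 genes averaging 10 or more. p-values were adjusted by the Benjamini-Hochberg method over all of them. The study's DESeq2 test needs raw counts, so DESeq2 1.42.0 and edgeR 4.0.16 (quasi-likelihood) were run on recovered read pairs as alternatives. The procedures were tested on simulated data. Depth (33143619 to 45140743 read pairs per library) limits values near 3 read pairs, for counting error only.

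Members and lists were chosen with earlier results of these data known, and the lists were written from general knowledge. Named genes were the members, Slc15a5, Proser1, called genes and the largest rise and fall of each list, overlapping and nearest tested genes, called genes within 1 Mb, and the 5 nearest profiles to Slc15a2. Other settings tried were a pseudocount of 0.1 or 10, a filter at 50 or none, untrended or robust eBayes, TMM or quantile scaling, edgeR, DESeq2, a block for replicate number, omission of single libraries, no minimum fold, and windows of 0.5 or 2 Mb.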

Additional observations from a re-analysis of the deposited data

How the results depend on the processing

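The log2 fold change of Slc15a2 stayed between 3.78 (pseudocount of 10) and 4.23 under 18 alternatives, and between 3.82 and 4.23 with each library left out. The filter and eBayes settings among these 18 cannot change the log2 fold change of a member, since they reuse the same coefficient. The replicate number did not pair the libraries (correlations of same-numbered deviations of 0.023, 0.058 and -0.11). With it as a block the log2 fold change of Slc15a2 was 4.23, and 35 genes were called. Wild-type replicate 4 has no PROSER1 KO library of its number, so the block gave the same value as leaving that library out. Slc15a3 ranged from 0.22 to 0.44 and Slc15a4 from 0.090 to 0.20, without a change of sign. The count of differentially expressed genes (42) was 17 without the trend, 80 with robust variance estimates, 165 with DESeq2, and 23 to 42 with each library left out (lowest without PROSER1 KO replicate 2). Among 236 tested Slc genes, 2 were called (0.847%, against 0.258% of all tested genes), and these include Slc15a2, for which the family was chosen. The count was 1 without the trend, 4 with DESeq2 (which called 0.873% of all genes) and 2 to 3 with a library left out. The histidine list and the genes near Slc15a3 had 0, and 0 to 1 with a library left out, Slc7a8 and, without wild-type replicate 3, Ms4a6c (log2 fold change 0.59, adjusted p = 0.0162 from limma; named after its values were seen). Counts for the other 4 pathway lists and for genes near Slc15a1, Slc15a2 and Slc15a4 stayed at 0. The cause of these shifts was not tested. Depth limits Slc15a1 and Gm8425, which were near or below 3 read pairs, and 3 against 4 libraries limits all other comparisons.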
